A study of Mus musculus with 6 samples.

Results

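piRNA-sized reads from the coding sequences of mRNAs were described in small RNA sequencing of spermatogonial stem cells cultured from mouse testis, 6 libraries in all. A sequence was a member when it was 25 to 31 nt long, had no exact match to an annotated small RNA, matched exactly 1 gene in the sense, that gene coded for protein, and the whole match lay in the coding part of its longest coding transcript. By this rule 1295655 distinct sequences from 14981 of 21866 protein-coding genes were members, of 8046210 sequences of that length without a small RNA match and 11729247 distinct sequences in all. The libraries held between 4535 members, in the Mili knockout, and 962699, in the MILI immunoprecipitate. Most members were rare. Of all members, 1109132 were seen in 1 library only and 590183 had 1 read in the whole series, while 32634 had at least 10 reads in the immunoprecipitate.

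Each of the 6 groups was 1 library. Untreated wild type cells, wild type RNA oxidised with NaIO4, untreated Hen1 knockout cells, Hen1 knockout RNA oxidised with NaIO4 and untreated Mili knockout cells gave total RNA, and small RNAs bound to MILI were drawn down from wild type cells with an antibody. All the cells traced back to an F1 male of C57BL/6 and DBA2, 15 days old, that carried an actin-EGFP transgene, although the strain is labelled C57BL/6, and all grew on mouse embryonic fibroblasts (MEF). The mhen1-/- and mili-/- cells were made with Cas9 and guide RNAs and picked as single colonies checked by Sanger sequencing, so each knockout stands for the colonies used. Shares below are of the reads of 18 to 35 nt, of which the libraries held 2604390 to 25240941, and rpm is a number of reads scaled to 1000000 of those. With 1 library per group no test was possible. Differences are between libraries, not conditions. The 95% intervals (exact Clopper-Pearson for shares, for ratios from counting statistics on the log scale) cover counting error only. They take each read as independent and can be too narrow even for that. PCR copies cannot be told from independent molecules where no molecular identifiers were used. Both knockouts and the immunoprecipitate are set against the same wild type library. The genotypes could not be read from these libraries: members from Henmt1, the gene of Hen1, had 54 reads in the Hen1 knockout and 17 in wild type, while those from Piwil2, the gene of MILI, had 0 reads in the Mili knockout and 49 in wild type, and small RNA reads of an mRNA are not its level.

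piRNAs are small RNAs of the germ line that guide Piwi proteins such as MILI. They are cut from long single-stranded precursors, which include the mRNAs of many genes, mostly in their 3′ untranslated regions (3′ UTRs). MILI prefers RNAs that begin with U. After the 3′ end has been trimmed, Hen1 adds a methyl group to the 2′ hydroxyl of the last ribose. NaIO4 oxidises RNAs whose last ribose has both hydroxyls free, and these no longer enter a library, whereas methylated RNAs do. Unmethylated small RNAs can gain untemplated U or A at their 3′ ends and can be shortened.

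The most abundant members show what these RNAs look like. Below are the leading members of the 8 genes that headed the MILI immunoprecipitate, 3 members chosen after their values were seen because they had the most reads in wild type (Rps15, Pfdn6 and Hist1h1d), and the members most abundant in the Mili knockout, both mitochondrial. The capitals mark the first base and base 10, T stands for U, and each runs 5′ to 3′.
Rpl4: TgagaaaccGacggcggatccagcgc
Fth1: TgccgagaaActgatgaagctgcagaac
Ankrd11: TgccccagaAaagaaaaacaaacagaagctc
Serinc3: TcagtaagaAttccactgtaactcggctc
Cox4i1: TgaatggaaGacagttgtgggcatggcc
Rpl8: TaccgattcAagaagcggacagagctgtt
Rps3: TtcaaagctGagctgaatgaatttctcact
Srrm2: TccagattcCaaacccaagactcggactc
Rps15: TcctatgagCaactgatgcagctgtacagc
Pfdn6: TacgaatcaCagcttcgggacctcgagc
Hist1h1d: TgcacctgtGgagaagacacctgtgaag
mt-Atp8: AtgccacaaCtagatacatcaacatga
mt-Co1: AgcatctgtTctgattctttgggcacccag
All 11 nuclear members shown begin with T, and 4 of them have A at base 10. Both mitochondrial members begin with A. That of mt-Atp8 opens with the start codon of its mRNA.

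On GRCm38 with GENCODE M21, all of these lie in coding exons. The Rpl4 member lies at chr9:64176981-64177006 on the plus strand, in exon 6 of 10. That of Fth1 lies at chr19:9984264-9984291, plus strand, in exon 3 of 5 and from codon 66. Ankrd11 gave chr8:122893353-122893383, minus strand, exon 9 of 13. Serinc3 gave chr2:163639247-163639275, minus strand, exon 2 of 10, and Cox4i1 gave chr8:120673273-120673300, plus strand, exon 4 of 5. Rpl8 gave chr15:76904599-76904627, plus strand, exon 2 of 5, and Rps3 gave chr7:99482653-99482682, minus strand, exon 2 of 7. For Srrm2 it was chr17:23818649-23818677, plus strand, exon 11 of 15. The Rps15 member spans the junction of exons 1 and 2 of 3 at chr10:80292856-80293666, plus strand, and starts at codon 2. It matches no other annotated gene in the sense, and unannotated copies in the genome were not searched. Pfdn6 gave chr17:33939077-33939104, minus strand, exon 4 of 4, and Hist1h1d, which has 1 exon, gave chr13:23555125-23555152, plus strand. The mitochondrial ones lie at chrM:7766-7792 (mt-Atp8) and chrM:6022-6051 (mt-Co1), plus strand.

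Coding sequence members made up 4.65% of untreated wild type reads (95% interval 4.63% to 4.66%), from 340194 reads. They were 8.20% with NaIO4, 5.05% in the Hen1 knockout, 1.46% in its oxidised counterpart, 0.267% without Mili and 10.9% bound to MILI. So they were most frequent in RNA bound by MILI and least in cells without Mili. In the same order, 3′ UTR sequences chosen by the same rule made up 11.8%, 22.5%, 16.05%, 4.605%, 0.180% and 24.0%. Those of 5′ UTRs made up 0.383%, 0.657%, 0.438%, 0.113%, 0.0322% and 1.07%.

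**Figure D1:**
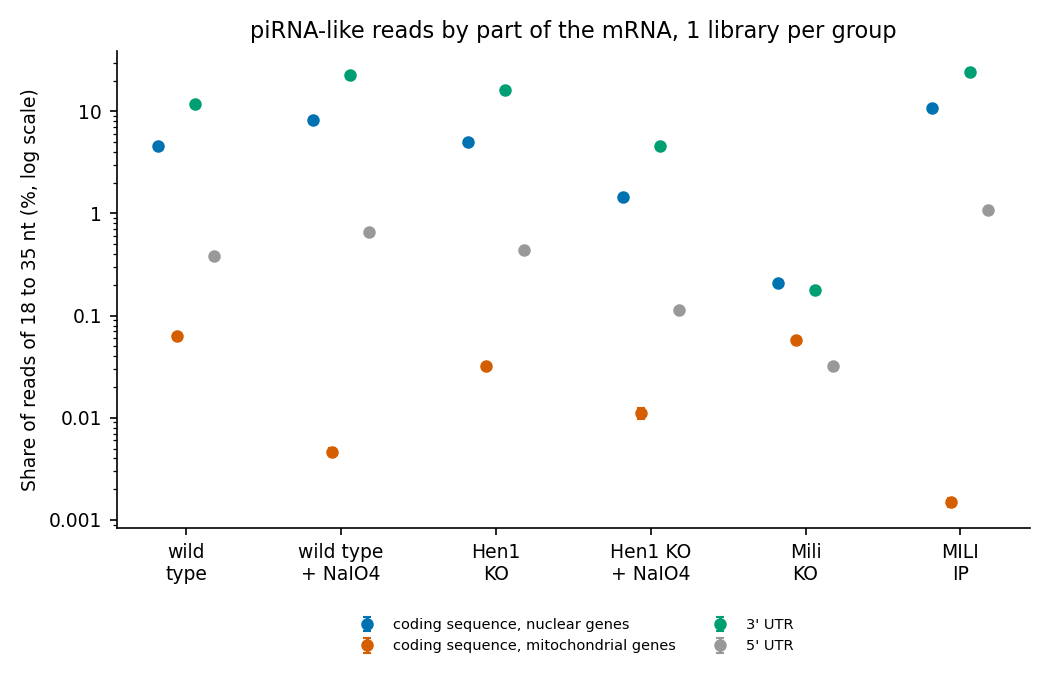
Share of reads of 18 to 35 nt (%, log axis) in each of the 6 libraries for piRNA-sized reads from nuclear coding sequence, mitochondrial coding sequence, 3′ UTRs and 5′ UTRs. Bars are exact 95% intervals, smaller than most points; nuclear coding sequence runs from 0.209% in the Mili knockout to 10.9% in the immunoprecipitate, while mitochondrial coding sequence is lowest there, at 0.00149%.

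The label piRNA was checked against the bases at positions 1 and 10, which the rule did not use. Among nuclear members the first base was T in 79.4% of wild type reads (79.2% to 79.5%). T made up 21.3% of the bases of the whole coding sequences of their genes, weighted by reads. With NaIO4 first T was 80.8%, in the Hen1 knockout 80.6%, after oxidation there 76.5% and in the immunoprecipitate 83.0%. In the Mili knockout it was 26.6% (25.8% to 27.5%), against 22.2% T in the coding sequences. The other 5 libraries thus shared a strong T at the first base, and the Mili knockout showed only a small excess. In 3′ UTR reads of wild type, first T reached 86.5% where T made up 29.1% of the whole 3′ UTRs of their genes. A at base 10 of nuclear members stood at 27.9% to 30.8% over the 6 libraries. The coding sequences held 26.1% to 26.8% A, a small difference in each. Length is part of the rule and is no check of the label. Nuclear members had a mean length of 28.0 nt and a most common length of 28 nt in wild type and in the Mili knockout alike.

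Members from mitochondrially encoded mRNAs, 2461 sequences from 10 of 13 genes, went against the label. Their first base was T in 19.4% of wild type reads, below the 30.03% of T in the whole coding sequences of these genes. Their share was 0.0632% in wild type, 0.00467% with NaIO4, 0.0318% in the Hen1 knockout, 0.0110% in its oxidised counterpart, 0.0575% without Mili and 0.00149% bound to MILI. So they were 13.5-fold lower with NaIO4 in wild type and were 42.3-fold lower in the immunoprecipitate than in wild type, the opposite direction to nuclear members in both. They were 1.36% of coding sequence reads in wild type and 21.6% in the Mili knockout. Below they are called mitochondrial coding sequence reads, and where they matter the values of nuclear genes are given too.

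The length limits cut through a continuous range. In wild type, coding sequence reads chosen in the same way but of 24 nt numbered 6391, those of 25 nt 15886, those of 31 nt 25104 and those of 32 nt 15060. First T was 66.5%, 73.1%, 78.2% and 75.9% of these, so reads just outside the limits resembled those inside. In the Hen1 knockout the same lengths held 39549, 89618, 13693 and 7966 reads.

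In wild type the share of coding sequence members was 1.77 times as high with NaIO4 as without (1.76 to 1.77). In the Hen1 knockout it was 3.45-fold lower with NaIO4, a ratio of 0.290 (0.287 to 0.293). The knockout's ratio was thus 0.164 times that of wild type (0.162 to 0.166). The values of 3′ UTR reads were close, at 1.91 in wild type against 0.287 in the Hen1 knockout, and those of 5′ UTR reads were 1.71 and 0.257. microRNAs, whose 3′ ends are normally unmethylated, were 12.5-fold lower with NaIO4 in wild type and 2.58-fold lower in the Hen1 knockout. All piRNA-like reads together, meaning reads of 25 to 31 nt without a small RNA match, had ratios of 1.55 and 0.402. As a share of piRNA-like reads instead of all reads, the ratios of coding sequence members were 1.14 in wild type against 0.720 in the Hen1 knockout, and the ratio between them was 0.631. Without the 10 most abundant sequences of the libraries the Hen1 knockout ratio was 0.438. A share tells how members stood against the rest of the library and not their amount, and the spike-ins that the labels mention were not identified.

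The same pattern held gene by gene. Of 230 genes with at least 200 member reads in wild type, 33 had a NaIO4 ratio of 2 or more, beside 29% of all genes by their 1-gene piRNA-like reads. The ratio was above 1 in 224 (background 99.1%), with a median of 1.77 over the 230. The 6 genes at least 2-fold lower (background 0.655%) were all mitochondrially encoded. In the Hen1 knockout, 491 genes had at least 200 reads, all 491 were below 1 (background 99.9%) and 475 were at least 2-fold lower (background 97.7%), with a median of 0.263. The gene counts were near the background in both genotypes, except that a ratio of at least 2 in wild type was reached by fewer of the members' genes, 33 of 230.

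**Figure D2:**
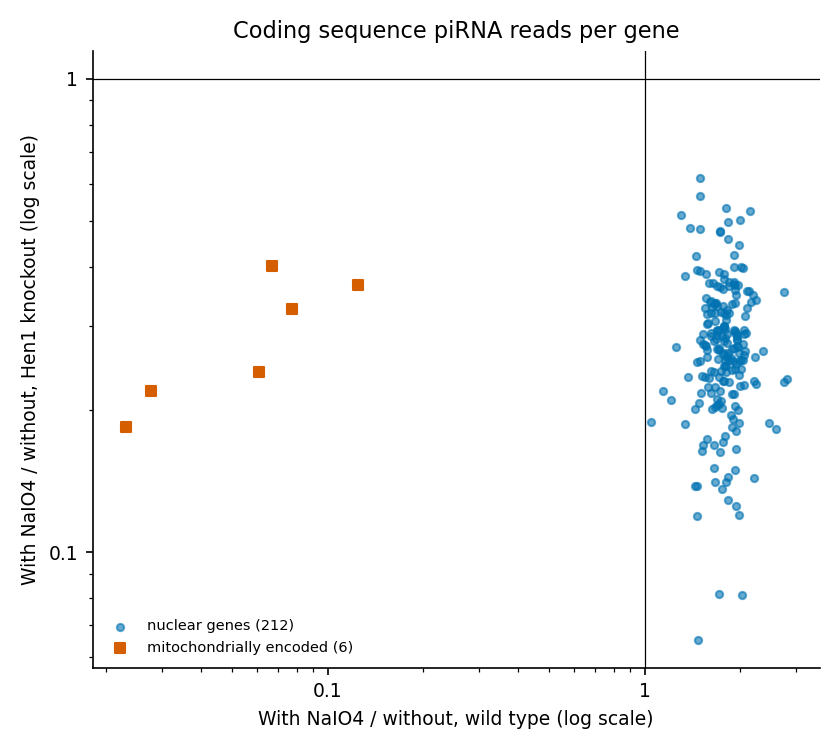
Ratio of rpm with NaIO4 to without, wild type on the x axis and Hen1 knockout on the y axis (both log), for 218 genes with at least 200 coding sequence reads in both untreated libraries. All 212 nuclear genes (circles) lie right of 1 in wild type and below 1 in the Hen1 knockout, and the 6 mitochondrially encoded genes (squares) lie below 1 in both.

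Fth1, the heavy chain of ferritin, which stores iron, gave the most member reads in the immunoprecipitate. It had 589 rpm in wild type, 1066 with NaIO4, 955 in the Hen1 knockout, 236 in its oxidised counterpart, 2.70 without Mili and 1649 bound to MILI. Its level was higher with NaIO4 in wild type and 4.05-fold lower with it in the Hen1 knockout. Rpl4, a protein of the large ribosomal subunit, had 246, 411, 218, 73.3, 2.70 and 1062 rpm in the same order. Ankrd11, a chromatin regulator, had 315, 567, 297, 71.4, 0 and 648 rpm. Cox4i1, a subunit of the last enzyme of the respiratory chain, had 190.1, 367, 190.4, 28.4, 0 and 495 rpm. These 3 genes had nearly the same or slightly lower levels in the untreated Hen1 knockout as in wild type, and in each the order of the other libraries was that of Fth1. The 6.70-fold lower level of Cox4i1 with NaIO4 in the Hen1 knockout rested on 74 reads in the oxidised library.

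Other leading sources lay lower in the Hen1 knockout than in wild type before any oxidation. Serinc3, a membrane protein of the serine incorporator family, had 144 rpm in wild type, 272 with NaIO4, 80.6 in the Hen1 knockout, 26.9 in its oxidised counterpart, 0.416 without Mili and 518 bound to MILI. Pfdn6, a subunit of the prefoldin chaperone, had 166, 295, 39.6, 11.9, 0 and 346 rpm. Psma6 of the proteasome had 164, 285, 93.7, 22.7, 0 and 369.5 rpm. Rps15 of the small ribosomal subunit had 111, 215, 75.4, 15.4, 0 and 366 rpm. Slirp, an RNA-binding protein of mitochondria, had 132 rpm in wild type against 66.1 in the Hen1 knockout. In all 5 genes the level was still higher with NaIO4 in wild type and lower with it in the Hen1 knockout.

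Ppp1r15b, a regulatory subunit of a phosphatase of the integrated stress response, went the other way between genotypes. It had 153 rpm in wild type, 266 with NaIO4, 313 in the Hen1 knockout, 68.7 in its oxidised counterpart, 0.416 without Mili and 362 bound to MILI. Stard9, a kinesin of the spindle, had 175 rpm in wild type against 283 in the Hen1 knockout. The remaining leading genes lay closer together in the untreated libraries. Rpl8 went from 129 to 123 rpm, Rps3 from 188 to 149.7, Srrm2, which acts in splicing, from 132 to 139.9, and Kars, the lysine tRNA synthetase, from 100.5 to 73.4. Over the 15 leading genes of the immunoprecipitate, NaIO4 ratios ran from 1.52 (Kars) to just under 2 (Srrm2) in wild type and from 0.149 (Cox4i1) to 0.349 (Rps3) in the Hen1 knockout.

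Among genes with at least 200 member reads in the Hen1 knockout, the 5 highest NaIO4 ratios there had values of 0.566 to 0.627. Pabpc1, which binds the poly(A) tails of mRNAs, had 39.2 rpm in the Hen1 knockout and 24.6 with NaIO4. The others were Zfp317, a zinc finger protein, the chaperone Hsp90ab1, Klhl9, an adaptor of a ubiquitin ligase, and Dync1h1, the heavy chain of dynein. Each rests on 26 to 64 reads in the oxidised library. They had 4 to 35 reads in the Mili knockout. In wild type their ratios were 1.40 (Zfp317) to 2.05 (Klhl9), but as a share of piRNA-like reads Zfp317, Hsp90ab1 and Dync1h1 had wild type ratios of 0.903, 0.970 and 0.969. On that scale all 5 turned in the Hen1 knockout, to 1.41 (Dync1h1) to 1.56 (Pabpc1). Among nuclear genes the lowest ratio in wild type, picked after the values were seen, was that of Tef, a transcription factor, with 54.8 rpm and 57.2 with NaIO4, a ratio of 1.04.

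The lowest NaIO4 ratios in wild type belonged to mt-Nd4 (0.0231), mt-Nd5 (0.0276), mt-Co1 (0.0608), mt-Atp8 (0.0670) and mt-Nd1 (0.0773), which code for subunits of the respiratory chain and of ATP synthase. mt-Co1 had 285 rpm in wild type, 17.3 with NaIO4, 118 in the Hen1 knockout, 28.4 in its oxidised counterpart, 253 without Mili and 2.54 bound to MILI. It stood highest in the untreated wild type and Mili knockout libraries. Their levels were read in the same sizes and counted by the same rule as those of nuclear genes.

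Single members gave fewer counts each. Of 952 members that reached 10 reads in untreated wild type and in the untreated Hen1 knockout, 242 (25.4%) had a wild type NaIO4 ratio of 2 or more, as had 20.5% of all such sequences, and 111 (11.7%) were at least 2-fold lower, as were 20.1% of all. In the Hen1 knockout 777 (81.6%) were at least 2-fold lower, beside 77.8% of all, and 10 were at least 2-fold higher, beside 4.15%. The oxidised Hen1 knockout library held 2604390 reads of 18 to 35 nt and the untreated one 11702714. Sequences near the limit of 10 reads would thus have few reads there even if unchanged. Counting error alone could place them among those lower, in the members and in the background. The Rps15 member had 490 reads in wild type, 1136 with NaIO4, 21 in the Hen1 knockout, 5 in its oxidised counterpart, 0 without Mili and 6454 bound to MILI. The Hist1h1d member, from a linker histone, had 491, 1444, 53, 4, 0 and 1773 reads.

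Without oxidation, the Hen1 knockout held a share of coding sequence members 1.09 times that of wild type (1.08 to 1.09). 3′ UTR reads stood at 1.36 and all piRNA-like reads at 1.41. Per 3′ UTR read there were 0.393 coding sequence reads in wild type against 0.314 in the Hen1 knockout, 0.800 times as many (0.796 to 0.803). As a share of piRNA-like reads, the coding sequence members were at 0.772 of wild type, which turns the direction. Of the 230 genes with at least 200 reads in wild type, 7 were at least 2-fold higher in the Hen1 knockout (background 6.22%) and 22 at least 2-fold lower (background 1.97%). Of those 22, 19 were nuclear. The ratio was above 1 in 110 of the 230 (background 69.9%). Its median was 0.978 for members, 1.33 for 3′ UTR reads in 784 genes and 1.23 for all 1-gene piRNA-like reads in 1221 genes. These medians are over different genes. Each set was chosen by its reads in wild type alone, which favours lower ratios in all of them. The 230 were chosen by coding sequence reads, the 784 by 3′ UTR reads and the 1221 by all 1-gene piRNA-like reads. In the Hen1 knockout 491 genes reached the same limit of coding sequence reads. Within nuclear genes with at least 200 coding sequence and UTR reads in both libraries, the share of those reads that came from coding sequence was lower than in wild type in 534 and higher in 570 of 1119 genes, with a median difference of 0.070 percentage points.

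The genes at the ends of this comparison were named after their values were seen. Enc1, an actin-binding protein, stood at 49.4 rpm in wild type against 138 in the Hen1 knockout (2.78-fold, 2.48 to 3.12), and March8, a ubiquitin ligase, at 33.7 and 86.3 rpm. Zfp280b and Zfp518b, zinc finger proteins, and Spata2 were 2.24, 2.14 and 2.13 times as high. Pfdn6 was 4.19-fold lower, Cox5b of the respiratory chain 3.95-fold, Hist1h1d 3.14-fold, 2410015M20Rik 3.12-fold and Cfl1, which severs actin filaments, 3.08-fold. For Pfdn6 and Hist1h1d the members printed above carried much of this. The Pfdn6 member had 842 of the gene's 1216 member reads in wild type and 130 of 464 in the Hen1 knockout, 10.4-fold lower in rpm. That of Hist1h1d was 14.8-fold lower.

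The base composition of the members moved with this comparison. From members under 40% GC to those of 60% GC or more, the Hen1 knockout ratio ran through 1.46, 1.34, 1.17, 1.02, 0.855 and 0.705, lower at every step. For 3′ UTR reads it ran through 1.65, 1.58, 1.36, 1.10, 0.883 and 0.739 in the same bins, above coding sequence in each, with a gap that was wider in the 3 bins under 50% GC than in the 3 above. Over the bins the NaIO4 ratio in wild type went from 2.01 to 1.53 and that in the Hen1 knockout from 0.356 to 0.226, whereas the ratio of the immunoprecipitate to wild type stayed between 2.33 and 2.51. Mean GC of member reads was 49.5% in wild type against 47.6% in the Hen1 knockout. Over 224 nuclear genes Spearman's rho between a gene's member GC content and its Hen1 knockout ratio was -0.218, a description over points that share both libraries. The part of library preparation in this was not tested.

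**Figure D3:**
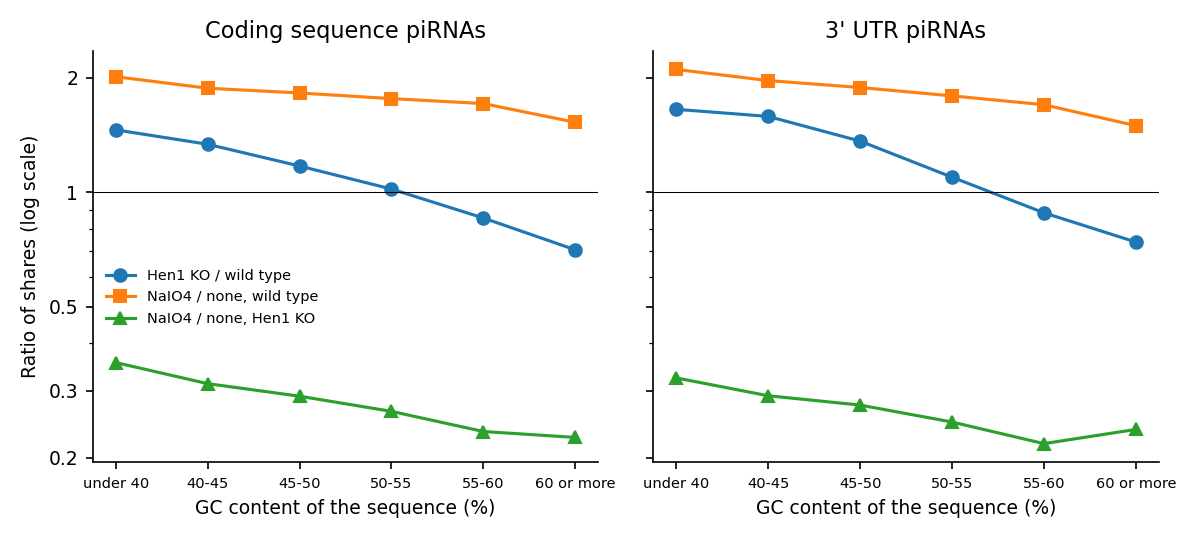
Ratio of shares (log axis) in bins of the GC content of the sequence, for coding sequence reads (left) and 3′ UTR reads (right), with untreated Hen1 knockout against wild type and NaIO4 against none in both genotypes. In coding sequence all 3 lines fall from left to right, the Hen1 knockout against wild type from 1.46 to 0.705, and the wild type NaIO4 line stays above 1 throughout.

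The 3′ ends of members differed between the genotypes. Mean length of nuclear members was 28.0 nt in wild type and 27.0 nt in the Hen1 knockout. Members of 25 nt were 4.57% of reads in wild type against 15.2% in the Hen1 knockout, and those of 28 nt 23.3% and 17.01%. To compare the same molecules, 154 nuclear 5′ ends with at least 50 member reads in both libraries were followed. At 150 of the 154 the reads were shorter on average in the Hen1 knockout, by a median of 0.80 nt (middle 50% from -1.23 to -0.47 nt). Of 717 such ends in 3′ UTRs 665 were shorter, with a median difference of -0.67 nt. NaIO4 in wild type gave 115 shorter and 125 longer of 241 ends, and the immunoprecipitate 126 shorter and 118 longer of 244, so the shift was seen in the knockout and not in the other wild type libraries.

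Ladders of length at single 5′ ends show this. At the 5′ end of the Fth1 member printed above, wild type had 41 reads of 25 nt, 40 of 26, 46 of 27, 153 of 28, 103 of 29 and 269 of 32 nt. The Hen1 knockout had 511, 498, 512, 519, 54 and 12 reads at these lengths. The form of 32 nt, just outside the member window, was the most common in wild type and nearly gone in the knockout, where the forms of 25 to 28 nt were alike in number. At the Rps15 5′ end the 30 nt form was 85.4% of 574 reads in wild type and 9.63% of 218 in the Hen1 knockout, which had more of 25 nt (21.6%), 27 nt (26.6%) and 32 nt (16.1%). At the Rpl8 5′ end 29 nt was 69.8% in wild type against 11.1% in the Hen1 knockout, where 28 nt reached 65.0%. The Rpl4 end moved little, with 26 nt at 93.4% in wild type against 87.6% in the Hen1 knockout. At Pfdn6 28 nt went from 98.2% to 78.8%. Further, 165 nuclear 5′ ends had at least 50 reads of 24 to 32 nt in wild type, Hen1 knockout and immunoprecipitate. At each of them the length most common in the immunoprecipitate was followed. It held a median of 58.3% of reads in wild type, 59.6% with NaIO4 and 33.7% in the Hen1 knockout. In the immunoprecipitate it held 56.2%, a value from the same reads that chose the length. Its share was lower in the Hen1 knockout than in wild type at 130 of the 165.

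**Figure D4:**
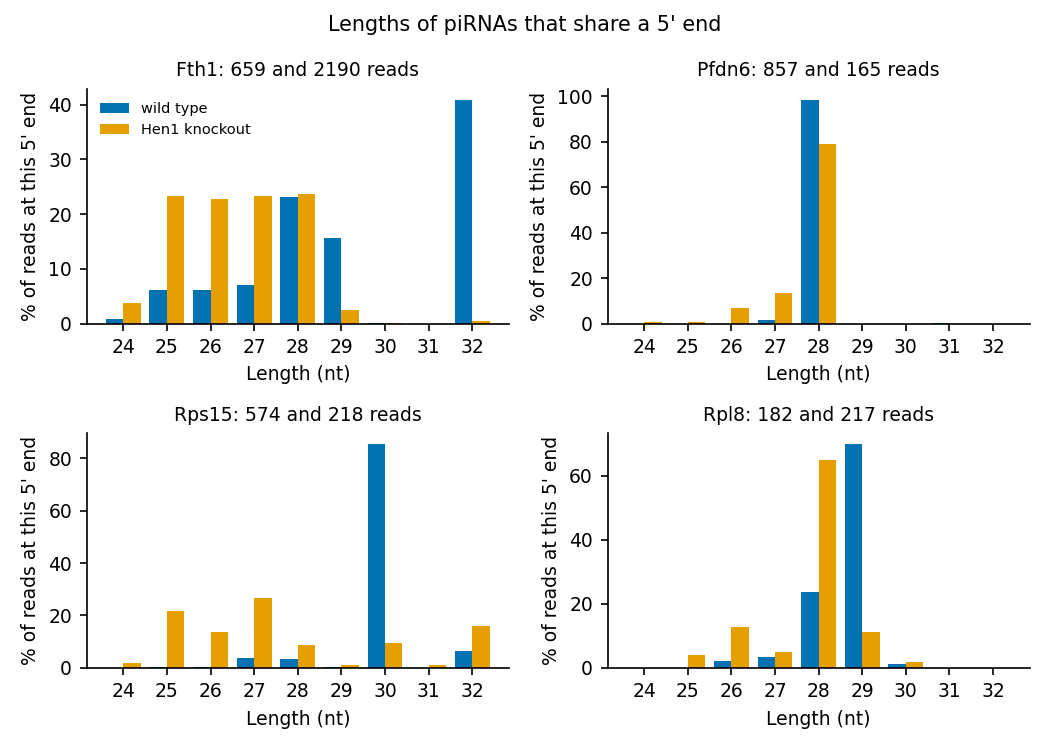
Percent of reads (y) at each length from 24 to 32 nt (x) among reads that share 1 5′ end, in untreated wild type and the untreated Hen1 knockout, for Fth1, Pfdn6, Rps15 and Rpl8; the titles give the reads of each library. The main wild type length of Rps15, 30 nt, goes from 85.4% to 9.63%, while that of Pfdn6, 28 nt, goes from 98.2% to 78.8%.

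Untemplated 3′ tails were counted as 1 to 3 bases that the mRNA does not hold, after a stretch of at least 22 nt unique to 1 gene. Tailed reads were 4.41% of templated and tailed reads in wild type (4.34% to 4.48%), 3.69% with NaIO4, 14.4% in the Hen1 knockout (14.3% to 14.5%), 11.98% in its oxidised counterpart, 1.71% without Mili and 3.45% bound to MILI. Both Hen1 knockout libraries thus stood far above the 4 others. Tails of T only were 2.88% in wild type against 8.12% in the Hen1 knockout, and tails of A only 0.775% and 3.96%. Tails of C only, at 0.235% and 0.256%, hardly differed, and tails of G only were 0.0415% and 0.0992%. Most tails were 1 base long, 10.5% of reads in the Hen1 knockout against 2.78% with 2 bases and 1.10% with 3. Sequencing errors and bases of the DBA2 genome can pass as tails in every library.

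**Figure D5:**
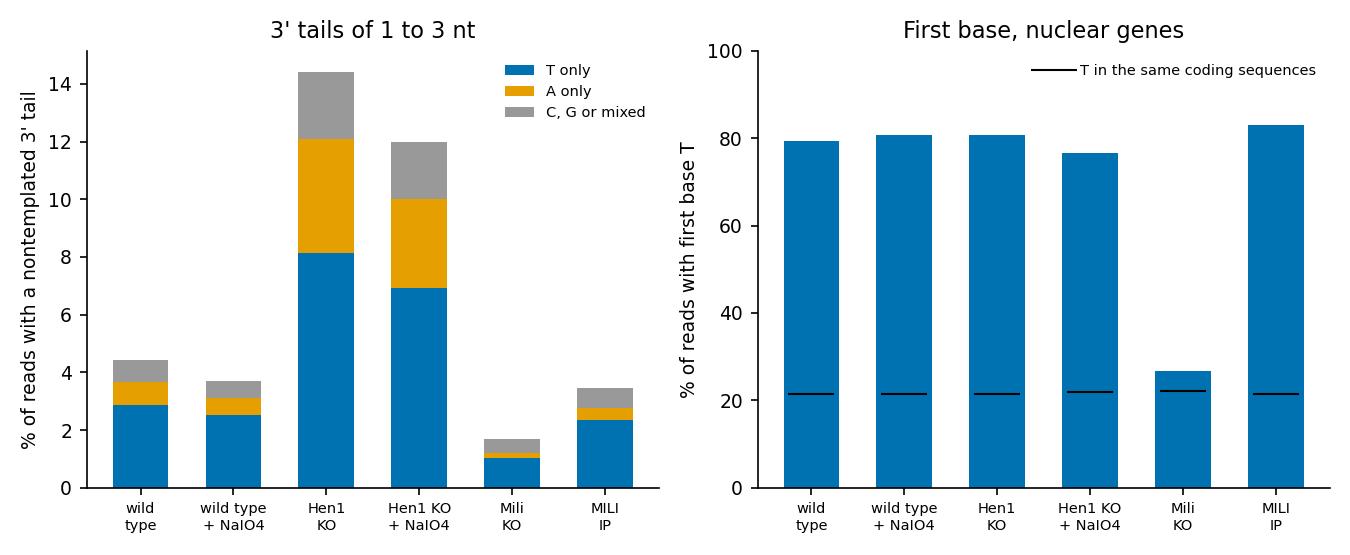
Left, percent of reads with an untemplated 3′ tail of 1 to 3 bases, stacked as T only, A only and other, in the 6 libraries. Right, percent of nuclear member reads whose first base is T, with black lines for the T content of their genes' coding sequences. Tails reach 14.4% in the Hen1 knockout against 4.41% in wild type, and first T stands at 76.5% to 83.0% except in the Mili knockout, at 26.6%.

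In the Mili knockout coding sequence members were 17.4-fold lower than in wild type (17.1 to 17.7), and those of nuclear genes 21.9-fold. Reads with first base T were 65.2-fold lower and those with another first base 6.16-fold. 3′ UTR reads were 65.6-fold lower and 5′ UTR reads 11.9-fold. Coding sequence reads therefore outnumbered 3′ UTR reads in this library, at 1.48 per 3′ UTR read against 0.393 in wild type. For nuclear genes alone the values were 1.16 and 0.388. Of the 230 genes with at least 200 reads in wild type, 224 were at least 2-fold lower (background 99%) and 0 at least 2-fold higher (background 0.164%), with no test behind either count. The 6 genes not counted as lower were the mitochondrially encoded ones. mt-Co1, mt-Nd5, mt-Atp8, mt-Cytb and mt-Nd4 were the 5 genes with the most reads in the Mili knockout, at 253, 95.7, 95.5, 47.6 and 28.3 rpm, beside 285, 106, 87.1, 57.1 and 29.5 rpm in wild type.

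The nuclear reads left without Mili were of another kind. Of them, 1.06% (0.872% to 1.28%) were of sequences that the immunoprecipitate held 10 times or more, against 30.1% of wild type and 20.1% of Hen1 knockout reads. Their lengths were spread more evenly, with 12.1% at 25 nt and 13.4% at 31 nt, where wild type had 4.57% and 7.28%. The nuclear gene with the most reads there, named after its value was seen, was Col1a1, a collagen made by fibroblasts, with 17.3 rpm in the Mili knockout, 7.51 in wild type, 3.50 with NaIO4 and 3.37 in the immunoprecipitate. Not all fibroblast markers were higher there. Fn1, fibronectin, had 7.49 rpm in the Mili knockout and 15.7 in wild type, 2.10-fold less, and Sparc had 1 read there and 11 in wild type. The 14 markers of fibroblasts, 12 of which had a read, summed to 33.2 rpm in wild type, 23.1 with NaIO4, 20.4 in the Hen1 knockout, 16.1 in its oxidised counterpart, 34.5 without Mili and 20.0 bound to MILI. Their reads were 0.0714% of coding sequence reads in wild type and 1.29% in the Mili knockout. The part of feeder cells in the remaining reads was not tested. Fewer cells of a type and less RNA per cell cannot be told apart in such libraries.

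MILI-bound RNA held 2.34 times the share of coding sequence members seen in wild type total RNA (2.33 to 2.35). For 3′ UTR reads it was 2.03 and for 5′ UTR reads 2.80. Per 3′ UTR read, the immunoprecipitate had 0.454 coding sequence reads and wild type 0.393. Of the 230 genes, 150 were at least 2-fold higher in the immunoprecipitate (background 56.6%) and 6 at least 2-fold lower (background 1.15%), again the mitochondrial ones. The ratio was above 1 in 223 (background 97.1%), with a median of 2.17. Rpl4 was 4.32-fold higher, and its printed member, with 156 reads in wild type and 7594 in the immunoprecipitate, 14.1-fold. Ankrd11 was 2.06-fold higher and Stard9 2.00-fold. The Hist1h1d member, at 1.05-fold, was not higher. The antibody's background was not measured, as no control immunoprecipitate was analysed here.

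Within the mRNA, coding sequence gave fewer such reads per length than the 3′ UTR. The 14296 genes compared were nuclear, had a 3′ UTR and gave a coding sequence read in the immunoprecipitate. Genes without such a read were left out, which can raise the coding sequence side in this comparison. Wild type had 1.71 rpm per kb of coding sequence and 5.20 of 3′ UTR, 3.03-fold more in the latter. The same ratio was 3.24 with NaIO4, 3.78 in the Hen1 knockout, 3.74 in its oxidised counterpart, 1.00 without Mili and 2.60 bound to MILI. So the 3′ UTR led in every library but that without Mili, where the parts were at 0.0778 and 0.0780 rpm per kb. Genes differed widely. In the 1134 genes with at least 200 reads in wild type, coding sequence held a median of 10.4% of a gene's reads, and in 238 of them over 50%. Fth1 gave 68.8% of its wild type reads from coding sequence, Ppp1r15b 54.9% and Pabpc1 56.9%, whereas Rpl4, Ankrd11, Cox4i1, Rpl8, Rps3, Srrm2 and Stard9 gave 95.6% to 99.9%.

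Pooled over nuclear genes, the reads were spread nearly evenly along the coding sequence. Single genes could be far from even. The printed Pfdn6 member had 842 of the gene's 1216 member reads in wild type. By the median over genes the last part held less than in the pool, as given at the end. In wild type the 10 equal parts from start to stop held 9.26% to 11.6%, with the lowest in the fourth and the highest in the last. The first 50 nt after the start had 1.18 times the gene's mean density and the last 50 nt 1.16 times. In wild type 14.5% of nuclear member reads crossed an exon junction, and 14.8% of all possible starting places in the same genes, weighted by their reads, would do so. The largest gap between such values was in the Hen1 knockout, at 13.1% and 13.5%. Members thus crossed junctions about as often as places in the spliced mRNA do. Such reads matched no second annotated gene in the sense, but unannotated copies of spliced mRNAs in the genome were not searched.

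Codon position was not even. Of wild type reads that begin with T, 40.5% began at codon position 3, which held 34.5% of the T in those coding sequences, and 37.5% and 21.9% began at positions 2 and 1, which held 39.9% and 25.5%. Position 3 stood at 39.8% to 41.4% in the other libraries with Mili, above 34.6% to 34.95% of T. In the Mili knockout it was 34.4%, against 36.6% of T. Position 3 was thus above its share of T in each library with Mili and below it in the library without.

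Antisense reads over coding sequence were few, and signs of paired or stepwise cutting varied between libraries. Antisense reads were 1.04% of sense plus antisense reads over coding sequence in wild type and 0.839% in the immunoprecipitate. Pairs of sense and antisense 5′ ends that overlap by 10 nt, the mark of cutting by a Piwi protein, numbered 27 in wild type, 1.66 times the mean of other overlaps from 1 to 20 nt. They numbered 111 (1.86 times) with NaIO4, 110 (1.75 times) in the Hen1 knockout, 4 (2.53 times) in its oxidised counterpart, 0 without Mili and 565 (1.08 times) in the immunoprecipitate. 10 nt was the most common overlap in the 4 wild type and Hen1 knockout libraries, tied with 12 nt in the smallest, but not in the immunoprecipitate. In untreated wild type it led by little, with 27 pairs against 26 at the next most common overlap. A 5′ end directly after the 3′ end of another read was 1.17 times as common as spacings of 2 to 50 nt in wild type, 1.16 times with NaIO4, 1.19 times in the immunoprecipitate and 1.04 times in the Hen1 knockout. It was 1.44 times in the oxidised Hen1 knockout, from 230 pairs, and 1.88 times in the Mili knockout, from 6 pairs. This spacing did not stand apart in wild type, where 11 nt had 5321 pairs against 5326. In the untreated Hen1 knockout 11 nt was the most common spacing. The base after the 3′ end was T in 25.2% of wild type reads, beside 21.3% T in the coding sequences of their genes. It was T in 25.1% with NaIO4, in 23.2% of Hen1 knockout reads and in 25.1% of those bound to MILI. The excess over the T of such coding sequences was largest in the Mili knockout, with 37.1% against 22.2%. The oxidised Hen1 knockout followed, with 29.9% against 21.8%.

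Groups of genes were read by lists made with earlier results of these data known. Of 102 annotated genes of ribosomal proteins 58 had a member. Sequences that also matched another gene, such as a pseudogene, were left out by the rule and were not counted per gene. Their summed level was 1174 rpm in wild type, 2134 with NaIO4, 1081 in the Hen1 knockout, 318 in its oxidised counterpart, 10.2 without Mili and 3566 bound to MILI. That is 52.4 rpm per kb of coding sequence in the immunoprecipitate, beside 3.10 over all protein-coding genes, and a level 115-fold lower in the Mili knockout than in wild type. Of their 9 genes with at least 200 reads in wild type, 9 were above 1 with NaIO4, as were 224 of all 230, and of 10 in the Hen1 knockout all 10 were at least 2-fold lower, as were 475 of all 491. The median NaIO4 ratio in wild type was 1.77 for the list and 1.77 for all genes.

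Translation factors had members in 63 of 68 genes and summed to 547 rpm in wild type, 28.1 without Mili and 1441 bound to MILI. Eef2, which moves the ribosome along, kept 7.07 rpm in the Mili knockout of 50.5 in wild type. Eif3d, an initiation factor, had 0.208 of 75.5. Histones had members in 63 of 82 genes, with 565 rpm in wild type, 952 with NaIO4, 379 in the Hen1 knockout, 85.2 in its oxidised counterpart, 1.87 without Mili and 1273 bound to MILI. All 6 histone genes with at least 200 reads in wild type were below 1 in the Hen1 knockout, as were 120 of all 230 genes chosen this way. Their median was 0.694 beside 0.978 over the 230, and 1 of them, Hist1h1d, was at least 2-fold lower. Hist1h1a, another linker histone, had 132 and 95.9 rpm.

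All 23 genes of the piRNA pathway had members, with 180 rpm in wild type, 340.2 with NaIO4, 199.9 in the Hen1 knockout, 68.0 in its oxidised counterpart, 13.1 without Mili and 499 bound to MILI. Tex15, which acts in silencing transposons, led with 59.3 rpm in wild type, followed in the immunoprecipitate by Mov10l1, an RNA helicase, with 31.7. Genes of metabolism and the cytoskeleton (11 of 14 with a member) were at 94.8 rpm in wild type, 60.6 in the Hen1 knockout and 7.28 in the Mili knockout. Chaperones and nucleolar proteins (9 of 9) were at 115, 114 and 21.2 rpm, the latter 5.43-fold lower than wild type. Chromatin genes (13 of 13), led by Smarca4 and Dnmt1, were at 143, 137 and 10.4 rpm.

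Markers of spermatogonial stem cells all had members (18 of 18), and summed to 107 rpm in wild type, 198 with NaIO4, 116 in the Hen1 knockout, 41.9 in its oxidised counterpart, 11.9 without Mili and 249.8 bound to MILI. Dazl, an RNA-binding protein of germ cells, led with 22.4 rpm in wild type and had 0 reads in the Mili knockout. Later germ cell markers had members in 5 of 8 genes, mainly Sycp1 and Sycp3 of the synaptonemal complex, with 13.1 rpm in wild type, 27.1 in the Hen1 knockout and 0 in the Mili knockout. Acrv1, Prm1 and Prm2, made in spermatids, had none. Markers of testis somatic cells had members in 3 of 6 genes and 4 reads in wild type. These levels follow the yield of small RNAs from each mRNA as well as its abundance, which were not measured apart.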

How the data were processed

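The authors deposited 1 table per library that lists each distinct sequence with its count of reads, unscaled. Per the submitters' processing notes, Bowtie and mm10 were used. How adapters were trimmed and lengths filtered is not given in the sources used here. Depth was 2833286 to 26292082 reads per library.

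Members and lists were chosen with earlier results of these data known. Sequences were matched exactly to GENCODE M21 transcripts, on GRCm38. Reads of DBA2 alleles, and reads shared with a pseudogene or a second gene, were therefore left out. No genome sequence was used, so introns and unannotated places were not read. Named genes were the 15 with the most member reads in the immunoprecipitate, the 5 with the most in the Mili knockout, and the 5 with the lowest wild type or highest Hen1 knockout NaIO4 ratio among genes with at least 200 reads. Named sequences were the most abundant member of each of the 8 first genes and the 3 most abundant in the Mili knockout, of which 1 further, shorter form from mt-Co1 is not shown. Gene counts used at least 200 reads and 2-fold, sequence counts at least 10 reads. The lists were ribosomal proteins, translation factors, histones, mitochondrially encoded genes, piRNA pathway, metabolism and cytoskeleton, chaperones and nucleolus, chromatin, and markers of spermatogonial stem cells, feeder fibroblasts, later germ cells and testis somatic cells. No test was made, and no pairing was used. The scripts were tested on simulated data. Python 3.11.15 was run with numba 0.67.0, numpy 2.4.6, scipy 1.17.1, pandas 2.3.3 and matplotlib 3.10.9.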

Additional observations from a re-analysis of the deposited data

Results flagged for a closer look

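NaIO4 moved the share of coding sequence reads up in wild type and down in the Hen1 knockout. With 1 library per group this difference was not tested. The 20 named genes below were listed because their ratio was above 1 in wild type and below 1 in the Hen1 knockout. Of all genes with at least 200 1-gene piRNA-like reads, 99.1% were above 1 in wild type and 99.9% below 1 in the Hen1 knockout. The named genes mt-Co1, mt-Nd5, mt-Atp8, mt-Cytb, mt-Nd4 and mt-Nd1 were below 1 in both. The Hen1 knockout ratio divided by the wild type ratio was 0.164 over all coding sequence members. It was lowest in Cox4i1 (0.0773), Rps15 (0.105), Ppp1r15b (0.126), Ankrd11 (0.133) and Fth1 (0.137). Values of 0.139 (Psma6), 0.140 (Stard9), 0.146 (Srrm2), 0.148 (Rpl8), 0.155 (Kars), 0.169 (Pfdn6), 0.175 (Slirp), 0.177 (Serinc3), 0.179 (Rps3) and 0.201 (Rpl4) followed. It was higher in Klhl9 (0.280), Pabpc1 (0.333), Dync1h1 (0.378), Hsp90ab1 (0.412) and Zfp317 (0.446), genes chosen for a high ratio in the Hen1 knockout.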

How the results depend on the processing

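No paired analysis was possible because each group had 1 library. Of 437 alternative values, 135 stayed within the counting interval or within 1.5 times the count. A further 282 moved outside these limits without a turn, and 20 turned. Only ratios were checked for a turn, to the other side of 1, so shares and counts among the 282 have no checked direction. The values in each of the next sentences are the wild type share (%), the NaIO4 ratio in wild type, the Hen1 knockout ratio, the ratio of both, and the Hen1 knockout, Mili knockout and immunoprecipitate against wild type, reported above as 4.65, 1.77, 0.290, 0.164, 1.09, 0.0574 and 2.34. Per read of any length they were 4.30, 1.82, 0.279, 0.153, 1.12, 0.0561 and 2.43. Per piRNA-like read they were 10.9, 1.14, 0.720, 0.631, 0.772, 0.181 and 1.35. Per 100 microRNA reads they were 24.1, 22.1, 0.748, 0.0339, 2.82, 0.0324 and 53.2. Without the 10 most abundant sequences they were 5.54, 1.70, 0.438, 0.257, 1.05, 0.0673 and 2.07, and with each distinct sequence counted once 10.1, 1.21, 0.581, 0.480, 0.855, 0.191 and 1.33. With limits of 24 to 32 nt they were 4.94, 1.74, 0.297, 0.170, 1.10, 0.0676 and 2.33. With 26 to 30 nt they were 4.09, 1.79, the Hen1 knockout ratio within its interval, 0.161, 1.02, 0.0487 and 2.36. Without mitochondrial genes they were 4.58, 1.79, the Hen1 knockout ratio again within its interval, 0.162, 1.09, 0.0457 and 2.37. By the longest coding part the wild type share was 4.74. Alternatives added after seeing the data gave 1.82, 0.274, 1.11, 0.0153 and 2.48 for the ratios of nuclear reads with first base T, and a mean over GC bins of 0.280 with NaIO4 in the Hen1 knockout and 1.08 for the Hen1 knockout against wild type. The Hen1 knockout against wild type thus turned under 2 of these settings, and the cause was not tested.

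Genes with a wild type NaIO4 ratio of 2 or more, 33 of 230, numbered 349 of 1531 from 50 reads, 0 of 15 from 1000 reads, 0 at 4-fold, 194 at 1.5-fold and 224 per microRNA read. Genes at least 2-fold lower in the Hen1 knockout, 475 of 491, numbered 2432 of 2775, 31 of 31, 221 at 4-fold and 105 per microRNA read. Sequences higher in wild type, 242 of 952, numbered 11 of 60 from 50 reads, 16 at 4-fold and 916 per microRNA read, and those lower in the Hen1 knockout, 777, numbered 51 of 60. Density and position were also read with each distinct sequence counted once, as the median over genes, and without the 10 genes with the most member reads. Wild type coding sequence density over that of the 3′ UTR, 0.330, was then 0.381, 0.250 and 0.314. The last of the 10 parts of the coding sequence, 11.6%, held 12.3%, 4.94% and 11.9%. In the Mili knockout the density ratio, 0.997, was 1.40 with each sequence counted once. First T in wild type, 79.4%, was 76.1% by distinct sequences and 79.1% without the 10 genes with the most member reads. Codon position 3, 40.5%, was 39.9% by distinct sequences. Among named genes, wild type NaIO4 ratios turned per piRNA-like read in Kars (0.982), Zfp317 (0.903), Hsp90ab1 (0.970) and Dync1h1 (0.969). The Hen1 knockout ratios turned in mt-Atp8 (1.00), Pabpc1 (1.56), Zfp317 (1.55), Hsp90ab1 (1.54), Klhl9 (1.43) and Dync1h1 (1.41). Per microRNA read, mt-Cytb turned in wild type (1.56). Ratios that turned in the Hen1 knockout were those of mt-Atp8 (1.04), Pabpc1 (1.62), Zfp317 (1.61), Hsp90ab1 (1.60), Klhl9 (1.49) and Dync1h1 (1.46). The depth of the Hen1 knockout library with NaIO4, the smallest, limits what single genes and members can show there.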
